A study of Mus musculus with 12 samples.

Results

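The genes of the major histocompatibility complex (MHC) and of antigen presentation were followed in mouse livers of 3 genotypes. They were chosen by symbol alone. The rule took every gene whose symbol begins with H2-, apart from *H2-Ke2* and *H2-Ke6*, which lie in the MHC but encode unrelated proteins, together with *B2m*, *Tap1*, *Tap2*, *Tapbp*, *Cd74*, *Ciita*, *Nlrc5*, *Cd1d1*, *Cd80* and *Cd86*. Of 24411 genes in the table, 52 met this rule. They comprised 32 class I genes, 10 class II genes and the 10 accessory genes listed by name. Counts were sufficient to test 38 of them, namely 20 class I genes, 8 class II genes and all 10 accessory genes. Of the 12 class I genes that were not tested, 7 (*H2-M1*, *H2-M10.2* to *H2-M10.5*, *H2-M9* and *H2-M11*) had no count in any mouse. The 2 class II genes that were not tested were *H2-Ea-ps* and *H2-Eb2*.

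Cont. mice were Atg7flox/flox. Atg7-KO mice were Atg7flox/flox with the Alb-Cre transgene, in which the albumin promoter directs the deletion of the autophagy gene *Atg7* to hepatocytes, so that macrophages keep the gene. Atg7-KO;p62T352A mice were Atg7flox/flox;Alb-Cre and homozygous for p62T352A, a knock-in at the endogenous p62 gene *Sqstm1* that replaces a threonine of p62 so that p62 bodies no longer hold KEAP1, the repressor of the stress factor NRF2. All 9 mice carried the floxed *Atg7* alleles, were on a C57BL/6 background and were 3 months old, with 3 mice per genotype as biological replicates. The knock-in was made by prime editing in C57BL/6N-derived embryonic stem cells and, unlike the Alb-Cre deletion, is present in all cells. Because no p62T352A mice without the deletion were analysed here, the knock-in is seen only on the deleted background. P-values reflect the spread between the mice of this series. Whole-liver poly(A) RNA was sequenced, and the values are counts of reads per gene.

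Total counts per mouse were between 9671073 and 23285134. The 52 genes together took 0.547% to 0.827% of the counts in cont. mice, 1.08% to 1.14% in Atg7-KO mice and 0.833% to 1.12% in Atg7-KO;p62T352A mice. *Atg7* itself had 46.4, 44.2 and 55.4 normalized CPM (counts relative to each mouse's total, which was scaled by edgeR's TMM method) in cont. mice 1 to 3, 10.1, 9.57 and 12.0 in Atg7-KO mice and 29.7, 27.4 and 29.5 in Atg7-KO;p62T352A mice. It was thus lower in both deleted genotypes, but 2.73-fold higher in Atg7-KO;p62T352A than in Atg7-KO mice (adjusted p = 0.000164). The mice numbered 1 differed from the others in *Xist*, the X-inactivation transcript of female cells, with 7 to 28 counts against 8578 to 18335. By this marker mouse 1 of each genotype was male-like, and mice 2 and 3 were female-like. Sex was not part of the main model, and leaving out the mice numbered 1 leaves only female-like mice. Cont. mouse 1, the only male-like cont. mouse, stood apart from cont. mice 2 and 3, with a chi-square per degree of freedom between libraries of 196 and 305, against 13.3 to 115 for the other pairs within a genotype. Results that depend on cont. mouse 1 are given with and without it, and the part of sex in them was not tested. Hepatocyte markers were lower in Atg7-KO mice, with a summed level of 35066 to 37189 normalized CPM against 69789 to 121186 in cont. and 107608 to 122719 in Atg7-KO;p62T352A mice.

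MHC class I molecules consist of a heavy chain and beta2-microglobulin and display peptides made by the proteasome on nearly all nucleated cells. The peptides enter the endoplasmic reticulum through the TAP transporter and are loaded with the help of tapasin. Class II molecules are made by macrophages, dendritic cells and B cells, are escorted by the invariant chain and exchange its fragment for a peptide from the endosome with the help of H2-DM. In the liver, Kupffer cells and other macrophages are the main resident cells of the latter kind, whereas hepatocytes express class I and secrete the class I-like protein H2-Q10.

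The 38 of the 42 H2 genes that have a gene in the GENCODE annotation all lie on chromosome 17 of GRCm38 (mm10), between 33974659 and 37483552. The promoters of both classes share an inverted CCAAT element, the Y box, which binds NF-Y beside the factors that recruit CIITA to class II and NLRC5 to class I genes. Promoters of class I genes also hold an interferon response element and an NF-kB type element in many cases. The bases upstream of the RefSeq start (RefSeq, GRCm38.p6) are shown for genes of both classes that differed in their course across the genotypes. Each line gives 180 bases, 5′ to 3′ on the strand of the gene. Capitals mark GATTGG (Y box), GAANNGAAA (interferon response element type) and GGGGATTCC (NF-kB type), on either strand. Only these exact patterns were searched, and elements of the same kinds with other letters or spacing stay in lower case. A missing mark, as for GAANNGAAA and GGGGATTCC in *B2m*, therefore does not show that the element is absent. No match overlaps another in the lines shown.
H2-Aa, chr17:34287824-34288003 (minus strand): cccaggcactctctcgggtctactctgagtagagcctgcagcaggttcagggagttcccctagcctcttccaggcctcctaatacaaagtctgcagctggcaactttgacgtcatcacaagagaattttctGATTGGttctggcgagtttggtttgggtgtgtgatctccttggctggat
H2-Eb1, chr17:34305687-34305866 (plus strand): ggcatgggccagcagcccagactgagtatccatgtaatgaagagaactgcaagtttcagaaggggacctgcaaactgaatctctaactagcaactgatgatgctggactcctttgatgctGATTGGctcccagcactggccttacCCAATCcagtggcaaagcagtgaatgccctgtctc
H2-K1, chr17:34000334-34000513 (minus strand): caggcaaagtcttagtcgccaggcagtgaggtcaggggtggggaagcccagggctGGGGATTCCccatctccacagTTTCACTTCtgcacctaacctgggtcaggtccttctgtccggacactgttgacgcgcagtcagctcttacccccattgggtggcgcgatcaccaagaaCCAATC
H2-Q7, chr17:35438975-35439154 (plus strand): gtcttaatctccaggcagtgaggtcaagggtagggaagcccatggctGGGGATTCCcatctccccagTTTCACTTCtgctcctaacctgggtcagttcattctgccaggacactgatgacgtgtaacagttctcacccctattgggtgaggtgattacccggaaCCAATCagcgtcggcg
H2-Q10, chr17:35469909-35470088 (plus strand): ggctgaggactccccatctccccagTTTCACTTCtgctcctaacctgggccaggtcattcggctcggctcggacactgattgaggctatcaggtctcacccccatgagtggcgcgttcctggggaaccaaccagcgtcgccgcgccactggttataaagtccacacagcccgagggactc
H2-T22, chr17:36042743-36042922 (minus strand): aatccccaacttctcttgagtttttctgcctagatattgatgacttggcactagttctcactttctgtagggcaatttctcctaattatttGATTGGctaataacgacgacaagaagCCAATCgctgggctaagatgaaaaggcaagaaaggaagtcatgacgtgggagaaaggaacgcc
B2m, chr2:122147507-122147686 (plus strand): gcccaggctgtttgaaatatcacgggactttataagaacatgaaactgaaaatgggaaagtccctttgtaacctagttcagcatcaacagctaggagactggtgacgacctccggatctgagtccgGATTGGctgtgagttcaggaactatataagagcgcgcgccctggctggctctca

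RefSeq promoter windows were at hand for 34 of the 52 genes. Within 250 bases before the start, GATTGG was present in 8 of 8 class II genes, 16 of 22 class I genes and 2 of 4 accessory genes, against 14.6% of all 32851 windows. A gene was counted if any of its windows matched. Counted by window, as the share over all windows is, GATTGG was in 27 of 37, GAANNGAAA in 9 and GGGGATTCC in 5. The *H2-DMa* window from 34122582 held no GATTGG, and its other window held it 199 bases before the start. The *H2-K1* window from 34000298 held none either, and the other *H2-K1* window is the one shown. In *H2-Aa* GATTGG began 49 bases before the start, and in *B2m* 54 bases before it. GAANNGAAA was found in 8 of the 22 class I genes and in none of the 8 class II genes, against 6.31% of all windows. GGGGATTCC was found in *H2-K1*, *H2-D1*, *H2-Q6* and *H2-Q7*, 4 of the 22 class I genes, against 0.213% of all windows. The window of *H2-Q10* held GAANNGAAA but neither GATTGG nor GGGGATTCC, and that of *H2-T22* held GATTGG at 2 places. Several of these genes are duplicates of one another, so that their windows are not independent. A match describes letters in a window, and the lack of a match covers these exact patterns only.

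The classical class II genes rose together in Atg7-KO livers and were close to cont. levels in Atg7-KO;p62T352A livers. *H2-Aa*, the alpha chain of the A molecule (chromosome 17 from 34282744 to 34287823), had 36.2, 34.0 and 37.4 normalized CPM in cont. mice, 238, 206 and 224 in Atg7-KO mice and 39.1, 43.3 and 49.7 in Atg7-KO;p62T352A mice. Every Atg7-KO mouse was above all 6 other mice. The rise in Atg7-KO was 6.20-fold against cont. (log2 fold change 2.63, standard error 0.17, adjusted p = 1.37e-05; edgeR's quasi-likelihood test with Benjamini-Hochberg adjustment over 13922 genes, used throughout). Against Atg7-KO, *H2-Aa* was 5.05-fold lower in Atg7-KO;p62T352A mice (adjusted p = 2.30e-05). Every Atg7-KO;p62T352A mouse was still above every cont. mouse, a 1.23-fold difference that was not called (adjusted p = 0.255). In bulk tissue, a change in the number of cells of a type and a change in the RNA per cell cannot be told apart.

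*H2-Ab1*, the partner beta chain (chromosome 17 from 34257689 to 34269419), had 28.4, 32.9 and 39.1 normalized CPM in cont. mice, 181, 166 and 171 in Atg7-KO mice and 26.6, 32.4 and 38.6 in Atg7-KO;p62T352A mice. It rose 5.17-fold in Atg7-KO (adjusted p = 3.84e-05) and was 5.31-fold lower in Atg7-KO;p62T352A than in Atg7-KO mice (adjusted p = 4.07e-05). *H2-Eb1*, the beta chain of the E molecule (chromosome 17 from 34305867 to 34316674), had 22.8, 22.2 and 26.3 in cont. mice, 168, 157 and 164 in Atg7-KO mice and 27.8, 31.0 and 37.5 normalized CPM in Atg7-KO;p62T352A mice, a 6.87-fold rise in Atg7-KO (adjusted p = 1.37e-05). Atg7-KO;p62T352A mice did not overlap with cont. mice in *H2-Eb1*, but the 1.35-fold difference was not called (adjusted p = 0.124). The alpha chain gene of E is inactive in C57BL/6 mice, and its entry here, *H2-Ea-ps*, had 3 counts in cont. mouse 2 and none in any other mouse. The related *H2-Eb2* had 0 to 2 counts in cont. mice, 7 to 14 in Atg7-KO mice and 1 to 3 in Atg7-KO;p62T352A mice, too few to be tested. With 2 counts in all cont. mice together, the ratio of Atg7-KO to cont. was 9.22, with a 95% counting interval from 2.36 to 79.2.

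The 3 classical chains nearly kept their proportions. Of the summed *H2-Aa*, *H2-Ab1* and *H2-Eb1* level, *H2-Aa* made up 36.4% to 41.4% in cont. mice, 38.9% to 40.5% in Atg7-KO mice and 39.5% to 41.9% in Atg7-KO;p62T352A mice. The share of *H2-Eb1* was 24.9% to 26.1% in cont. mice and 28.6% to 29.7% and 29.0% to 29.8% in the other genotypes, that of *H2-Ab1* 32.5% to 38.1% in cont. mice, 30.6% to 31.4% in Atg7-KO mice and 28.4% to 30.7% in Atg7-KO;p62T352A mice. In both of these shares the cont. mice did not overlap with the Atg7-KO mice, although the shares lay near each other.

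*Cd74*, the invariant chain that escorts class II molecules, followed the same course. It had 92.7, 82.8 and 81.2 normalized CPM in cont. mice, 595, 559.6 and 580.5 in Atg7-KO mice and 64.4, 87.8 and 81.9 in Atg7-KO;p62T352A mice. It rose 6.76-fold in Atg7-KO (log2 fold change 2.76, standard error 0.19, adjusted p = 1.50e-05) and was 7.41-fold lower in Atg7-KO;p62T352A than in Atg7-KO mice (adjusted p = 1.91e-05). Relative to the summed classical chains, *Cd74* stood at 1.01 to 1.06 in Atg7-KO mice, 0.790 to 1.06 in cont. and 0.651 to 0.823 in Atg7-KO;p62T352A mice.

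The peptide exchange catalyst H2-DM is encoded by *H2-DMa* and by *H2-DMb1* and *H2-DMb2*. *H2-DMa* (chromosome 17 from 34119541 to 34139101) had 5.21, 3.97 and 4.07 normalized CPM in cont. mice, 27.5, 23.6 and 26.5 in Atg7-KO mice and 4.78, 6.16 and 5.74 in Atg7-KO;p62T352A mice, a 5.80-fold rise (adjusted p = 2.47e-05). *H2-DMb1* (chromosome 17 from 34153072 to 34160230) had 4.01, 5.01 and 4.29, 22.4, 21.9 and 23.1 and 2.86, 5.32 and 4.76 normalized CPM in the same order of genotypes and rose 5.07-fold (adjusted p = 9.91e-05). Both were lower in Atg7-KO;p62T352A than in Atg7-KO mice, by 4.64-fold and 5.19-fold (adjusted p = 4.70e-05 and 8.99e-05). *H2-DMb2*, which shares 16.1% of its 75-base stretches with other genes, mostly *H2-DMb1*, was far lower, with 3, 8 and 9 counts in cont. mice, 14, 29 and 32 in Atg7-KO mice and 2, 5 and 4 in Atg7-KO;p62T352A mice. It was not called between Atg7-KO and cont. (adjusted p = 0.236), but was 4.20-fold lower in Atg7-KO;p62T352A than in Atg7-KO mice (adjusted p = 0.0178). For *H2-DMb2*, without Atg7-KO mouse 2 or 3 or Atg7-KO;p62T352A mouse 1 or 3 this call was lost (adjusted p = 0.0528 to 0.0676), and without cont. mouse 1 it was called lower in Atg7-KO;p62T352A than in cont. mice (log2 fold change -1.75, adjusted p = 0.0446).

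H2-O, which modulates H2-DM and is known from B cells and dendritic cells, is encoded by *H2-Oa* and *H2-Ob*. *H2-Oa* had 4, 4 and 4 counts in cont. mice, 26, 20 and 17 in Atg7-KO mice and 5, 11 and 10 in Atg7-KO;p62T352A mice and rose 2.76-fold in Atg7-KO (adjusted p = 0.0266). For *H2-Oa*, without cont. mouse 1 or 2 or Atg7-KO mouse 1 or 2 this call was lost (adjusted p = 0.0568 to 0.104), and DESeq2 did not make it (adjusted p = 0.0565). With the mouse number as a block in the edgeR model this call was lost too (adjusted p = 0.0553). *H2-Ob* had 1.89, 3.78 and 4.62 normalized CPM in cont. mice, 1.98, 1.27 and 2.22 in Atg7-KO mice and 3.78, 2.38 and 2.74 in Atg7-KO;p62T352A mice. Its log2 fold change against cont. was -0.88 (adjusted p = 0.0802), which was not called. Without cont. mouse 1 it was -1.20 and was called (adjusted p = 0.00778), as was the difference between Atg7-KO;p62T352A and Atg7-KO mice (log2 fold change 0.71, adjusted p = 0.0473).

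*Ciita*, the transactivator of class II genes (chromosome 16 from 10480059 to 10528418), was low in all livers. It had 0.974, 0.946 and 2.86 normalized CPM in cont. mice, 7.30, 6.37 and 6.74 in Atg7-KO mice and 1.93, 0.490 and 0.849 in Atg7-KO;p62T352A mice. The rise in Atg7-KO was 4.42-fold (log2 fold change 2.14, standard error 0.51, adjusted p = 0.00747), and *Ciita* was 6.24-fold lower in Atg7-KO;p62T352A than in Atg7-KO mice (adjusted p = 0.00231). The costimulatory ligands of antigen-presenting cells moved in the same direction. *Cd86* had 4.24, 3.03 and 4.40, 15.1, 13.5 and 15.4 and 3.14, 3.57 and 3.33 normalized CPM in cont., Atg7-KO and Atg7-KO;p62T352A mice and rose 3.76-fold in Atg7-KO (adjusted p = 0.000117). *Cd80*, with 4, 6 and 0 counts in cont. mice, 25, 25 and 25 in Atg7-KO mice and 5, 1 and 3 in Atg7-KO;p62T352A mice, rose 4.00-fold (adjusted p = 0.0328). For *Cd80*, without cont. mouse 1 or 3, any Atg7-KO mouse or Atg7-KO;p62T352A mouse 3 this call was lost (adjusted p = 0.0502 to 0.0882). With the mouse number as a block in the model this call was lost too (adjusted p = 0.0520). *Cd80* was 5.17-fold lower in Atg7-KO;p62T352A than in Atg7-KO mice (adjusted p = 0.0139), and without Atg7-KO;p62T352A mouse 2 this call was lost (adjusted p = 0.0541). *Cd86* was 4.37-fold lower (adjusted p = 7.90e-05).

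**Figure D1:**
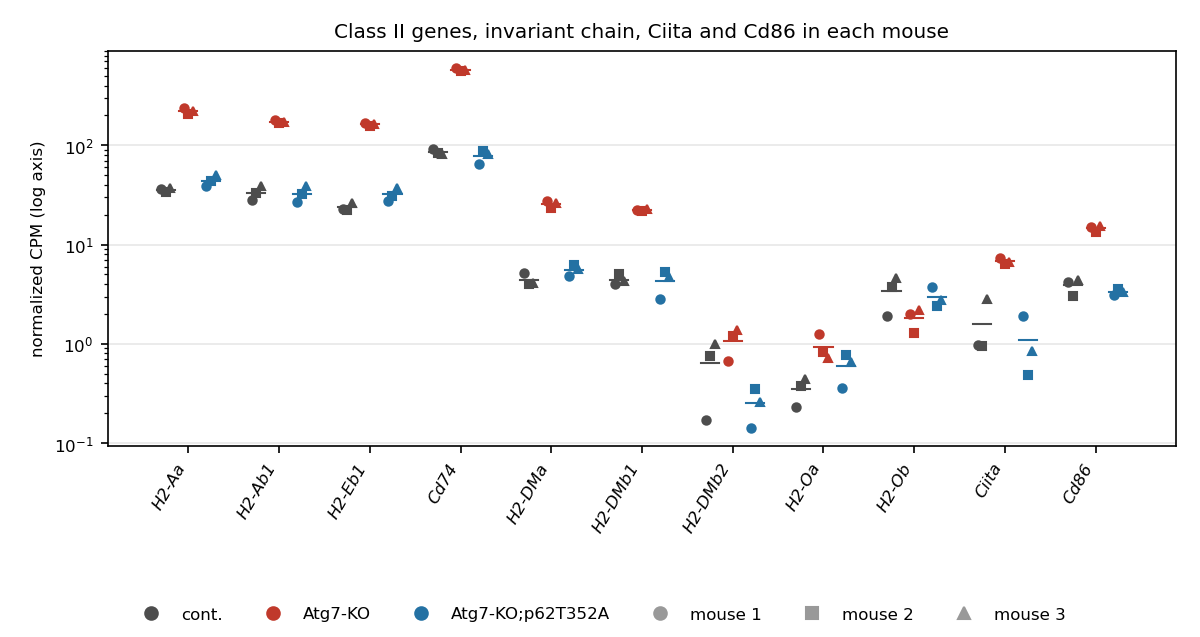
Normalized CPM (log axis) of class II genes, the invariant chain *Cd74*, *Ciita* and *Cd86* in each of the 9 mice, with a line at the mean of each genotype. The 3 Atg7-KO mice lie above the other 6 for *H2-Aa*, *H2-Ab1*, *H2-Eb1*, *Cd74*, *H2-DMa*, *H2-DMb1*, *Ciita* and *Cd86*, and not for *H2-DMb2*, *H2-Oa* and *H2-Ob*.

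Counted over the class, 6 of the 8 class II genes tested were called higher in Atg7-KO mice than in cont. at a false discovery rate under 0.05 and a fold change over 1.5, and none lower. Over all genes, 21.6% were called higher and 22.1% lower in this comparison. The median log2 fold change was 2.36 for the 8 class II genes and -0.03 for all genes. DESeq2, which tested 9, called 6 higher and none lower, and *H2-Oa* was not among its calls. Without cont. mouse 1, edgeR called 5 of 9 tested higher and 1, *H2-Ob*, lower. In that fit 3984 of all 14207 genes tested were called higher and 3976 lower. Against Atg7-KO, 6 of 8 were called lower in Atg7-KO;p62T352A mice and none higher, where 26.2% of all genes were called lower and 24.7% higher. Their median log2 fold change was -2.27. Between Atg7-KO;p62T352A and cont. mice edgeR called none of the 8, against 6.25% of all genes called higher and 5.34% called lower. There 1 of the 8, *H2-Eb1*, had an unadjusted p under 0.05, and DESeq2 called none either. The 3 comparisons share mice, so that the level in Atg7-KO enters both of the first 2.

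Markers of macrophages moved with the class II genes. All 7 macrophage markers (*Adgre1*, *Cd68*, *Csf1r*, *C1qa*, *C1qb*, *Lyz2* and *Itgam*) were called higher in Atg7-KO mice than in cont., with a median log2 fold change of 2.57, and all 7 were called lower in Atg7-KO;p62T352A than in Atg7-KO mice. Over all genes, 21.6% were called higher in the first of these comparisons and 26.2% lower in the second. The summed level of the 7 markers was 149 to 277 normalized CPM in cont. mice, 1026 to 1121 in Atg7-KO mice and 123 to 279 in Atg7-KO;p62T352A mice, and none was at 0 in any mouse. The summed class II level was 99.0, 104 and 117 normalized CPM in cont. mice, 641, 579 and 613 in Atg7-KO mice and 106, 122 and 140.1 in Atg7-KO;p62T352A mice. Divided by the summed macrophage markers, it was 0.357, 0.562 and 0.788 in cont. mice, 0.625, 0.545 and 0.547 in Atg7-KO mice and 0.856, 0.437 and 0.683 in Atg7-KO;p62T352A mice. The ranges of the 3 genotypes overlapped in this ratio. The part of the macrophage markers in the class II result was not tested.

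Markers of other immune cells gave mixed counts. The counts of this paragraph are to be read against the 21.6% of all genes called higher and the 22.1% called lower in Atg7-KO mice against cont. Of the Kupffer cell markers, 2 of 5 (*Vsig4* and *Cd5l*) were called higher in Atg7-KO mice and *Timd4* was called lower. The summed Kupffer cell markers were 220 to 265 normalized CPM in cont. mice, 476 to 539 in Atg7-KO mice and 146 to 295 in Atg7-KO;p62T352A mice, so that the Atg7-KO mice were above all others, as they were in class II. Of the dendritic cell markers, 3 of 7 (*Flt3*, *Cd209a* and *Itgax*) were called higher, and none was at 0. The summed dendritic cell markers were 6.13, 32.8 and 30.6 normalized CPM in cont. mice, 27.7, 28.4 and 27.9 in Atg7-KO mice and 16.1, 13.7 and 26.6 in Atg7-KO;p62T352A mice, so that Atg7-KO mice lay within the range of cont. mice. That overlap rested on *Clec9a*, which alone had 2.12, 23.9 and 22.6 normalized CPM in cont. mice and 5.22, 4.93 and 4.99 in Atg7-KO mice, whereas *Itgax* rose 8.57-fold (adjusted p = 0.00116). None of the 4 B cell markers tested was called between Atg7-KO and cont. by edgeR, where 1 had an unadjusted p under 0.05 and DESeq2 called 1 lower, with summed levels of 4.01 to 13.8 in cont. mice, 5.05 to 9.77 in Atg7-KO mice and 4.70 to 9.57 normalized CPM in Atg7-KO;p62T352A mice. Of the 4 T and NK cell markers tested, *Cd3e* and *Cd8a* were called higher in Atg7-KO mice. None of the B, T and NK cell markers in the table was at 0 in any mouse. Of other liver cells, 3 of 6 endothelial markers rose and 1 fell in Atg7-KO mice relative to cont., 4 of 5 cholangiocyte markers and 4 of 5 stellate cell markers rose, and none of these was at 0. The part of these cells in the class II result was not tested.

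Class I genes moved in both directions, with 11 of the 20 tested higher and 2 lower past the threshold in Atg7-KO mice against cont., where 21.6% and 22.1% of all genes were so called. *H2-K1*, a classical heavy chain (chromosome 17 from 33996017 to 34000347), had 1105, 1247 and 1574 normalized CPM in cont. mice, 1185, 1212 and 1212 in Atg7-KO mice and 2628, 2102 and 2778 in Atg7-KO;p62T352A mice. Atg7-KO mice lay within the range of cont. mice (log2 fold change -0.12, standard error 0.21, adjusted p = 0.654), whereas every Atg7-KO;p62T352A mouse was above all others. *H2-K1* was 2.08-fold higher in Atg7-KO;p62T352A than in Atg7-KO mice (adjusted p = 0.00259) and 1.91-fold higher than in cont. mice (adjusted p = 0.0235). For the latter, without cont. mouse 2, any Atg7-KO mouse or Atg7-KO;p62T352A mouse 1 or 3 this call was lost (adjusted p = 0.0523 to 0.0859).

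*H2-D1*, the other classical heavy chain of C57BL/6 mice (chromosome 17 from 35262730 to 35267499), rose in both genotypes. It had 484, 432 and 498 normalized CPM in cont. mice, 950.1, 971 and 1049.8 in Atg7-KO mice and 764, 802 and 977 in Atg7-KO;p62T352A mice, with no overlap between cont. and the other genotypes. The rise was 2.10-fold in Atg7-KO (adjusted p = 0.00138) and 1.80-fold in Atg7-KO;p62T352A mice (adjusted p = 0.0198), and the 2 genotypes did not differ past the threshold (log2 fold change -0.22, standard error 0.18, adjusted p = 0.312). The rise of *H2-D1* in Atg7-KO;p62T352A mice depended on single mice, and without cont. mouse 2, Atg7-KO mouse 2 or Atg7-KO;p62T352A mouse 3 this call was lost (adjusted p = 0.0501 to 0.0829). *H2-K1* and *H2-D1* thus differed in Atg7-KO livers, where *H2-D1* took 23.6% to 25.4% of the summed class I level against 10.7% to 12.0% in cont. mice, while *H2-K1* took 29.4% to 30.0% against 27.4% to 33.8%.

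*B2m*, the light chain of all class I molecules (chromosome 2 from 122147686 to 122153083), went with *H2-K1*. It had 2701, 2607 and 3248 normalized CPM in cont. mice, 2985, 2503 and 2800.0 in Atg7-KO mice and 5258, 3487 and 4500.3 in Atg7-KO;p62T352A mice. Its log2 fold change against cont. was -0.05 (standard error 0.22, adjusted p = 0.879). It was 1.60-fold higher in Atg7-KO;p62T352A than in Atg7-KO mice (adjusted p = 0.0283). For *B2m*, without any Atg7-KO mouse or Atg7-KO;p62T352A mouse 1 or 3 this call was lost (adjusted p = 0.0597 to 0.106), as it was with upper-quartile scaling (adjusted p = 0.0722) and with no filter on low counts (adjusted p = 0.0527). Against cont. it was 1.55-fold higher in Atg7-KO;p62T352A mice without passing the threshold (adjusted p = 0.0987). *B2m* per summed *H2-K1* and *H2-D1* was 1.55 to 1.70 in cont. mice, 1.15 to 1.40 in Atg7-KO mice and 1.20 to 1.55 in Atg7-KO;p62T352A mice.

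*H2-Q10*, the class I-like protein that hepatocytes secrete (chromosome 17 from 35470089 to 35474563), fell in Atg7-KO livers. It had 2070.0, 1725 and 2021 normalized CPM in cont. mice, 1000.4, 853 and 827 in Atg7-KO mice and 2756, 2454 and 1975 in Atg7-KO;p62T352A mice. The level was 2.17-fold lower in Atg7-KO mice than in cont. (log2 fold change -1.12, standard error 0.21, adjusted p = 0.00221) and 2.68-fold higher in Atg7-KO;p62T352A than in Atg7-KO mice (adjusted p = 0.000525). *H2-Q10* made up 43.4% to 51.3% of the summed class I level in cont. mice and 20.0% to 24.9% in Atg7-KO mice. All 5 hepatocyte markers tested (*Alb*, *Ttr*, *Apoa1*, *Serpina1a* and *Cps1*) were called lower in the same comparison, against 22.1% of all genes, with a median log2 fold change of -1.35, and none was at 0. Their part in the fall of *H2-Q10* was not tested. *Cd1d1*, which presents lipids to NKT cells, fell as well. It had 234, 293 and 454 normalized CPM in cont. mice, 149, 142 and 139 in Atg7-KO mice and 298, 215 and 267 in Atg7-KO;p62T352A mice and was 2.28-fold lower in Atg7-KO mice than in cont. (adjusted p = 0.00438). It was 1.82-fold higher in Atg7-KO;p62T352A than in Atg7-KO mice (adjusted p = 0.0163), and without Atg7-KO mouse 2 or 3 or Atg7-KO;p62T352A mouse 1 this call was lost (adjusted p = 0.0564 to 0.0587).

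Among the transporters and the loading complex, *Tapbp* (tapasin), *Tap1* and *Tap2* rose in Atg7-KO. *Tapbp* had 69.1, 72.0 and 103, 188, 211 and 227 and 129.7, 174 and 201 normalized CPM in cont., Atg7-KO and Atg7-KO;p62T352A mice. It was 2.56-fold higher in Atg7-KO (adjusted p = 0.00134) and 2.07-fold higher in Atg7-KO;p62T352A mice (adjusted p = 0.0210) than in cont., the only one of the 10 accessory genes called in the latter comparison. There, without cont. mouse 2 or Atg7-KO;p62T352A mouse 2 or 3 this call was lost (adjusted p = 0.0512 to 0.0803). *Tap1* had 29.9, 27.5 and 42.6 normalized CPM in cont. mice, 51.0, 60.3 and 65.1 in Atg7-KO mice and 40.1, 32.9 and 35.0 in Atg7-KO;p62T352A mice, and *Tap2* had 19.1, 23.0 and 28.2, 41.3, 47.7 and 52.6 and 26.0, 34.3 and 29.3. They were 1.77-fold and 2.02-fold higher in Atg7-KO mice than in cont. (adjusted p = 0.00886 and 0.00283) and lower again in Atg7-KO;p62T352A than in Atg7-KO mice (adjusted p = 0.0144 and 0.0172). For *Tap1*, without Atg7-KO mouse 3 this call was lost (adjusted p = 0.0605), and for *Tap2*, without Atg7-KO mouse 2 or 3 or Atg7-KO;p62T352A mouse 1 or 3 this call was lost (adjusted p = 0.0532 to 0.0715).

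*Nlrc5*, the transactivator of class I genes, did not follow *Tap1* and *Tap2*. It had 14.3, 42.6 and 57.7 normalized CPM in cont. mice 1, 2 and 3, 18.8, 28.2 and 27.4 in Atg7-KO mice and 46.1, 26.4 and 47.2 in Atg7-KO;p62T352A mice. Cont. mouse 1 was the lowest of all 9 and the other 2 cont. mice were above every Atg7-KO mouse. The log2 fold change against cont. was -0.62 (adjusted p = 0.274). Without cont. mouse 1 it was -1.02 and was called lower (adjusted p = 0.00858). It was then also called higher in Atg7-KO;p62T352A than in Atg7-KO mice (log2 fold change 0.69, adjusted p = 0.0304).

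**Figure D2:**
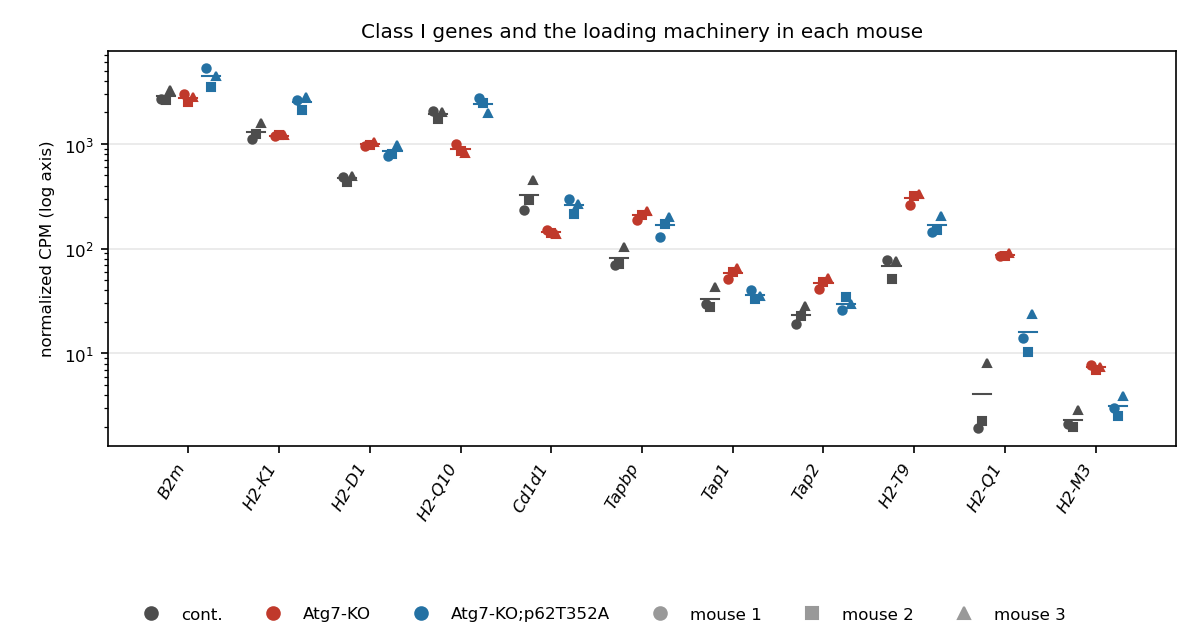
Normalized CPM (log axis) of class I genes and of genes of class I loading in each of the 9 mice, with a line at the mean of each genotype. *H2-D1*, *Tapbp* and *H2-T9* are higher than cont. in both other genotypes, *H2-K1* and *B2m* are highest in Atg7-KO;p62T352A mice, and *H2-Q10* and *Cd1d1* are lowest in Atg7-KO mice.

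The largest fold changes among all members between Atg7-KO and cont. mice were in nonclassical class I genes. *H2-Q1* (chromosome 17 from 35320405 to 35325099) had 1.95, 2.27 and 8.02 normalized CPM in cont. mice, 84.7, 85.3 and 90.5 in Atg7-KO mice and 13.9, 10.3 and 23.6 in Atg7-KO;p62T352A mice. It was 21.9-fold higher in Atg7-KO mice than in cont. (log2 fold change 4.46, standard error 0.54, adjusted p = 0.000243) and still 4.03-fold higher in Atg7-KO;p62T352A mice (adjusted p = 0.0333). For the latter, without cont. mouse 2, any Atg7-KO mouse or Atg7-KO;p62T352A mouse 1 or 3 this call was lost (adjusted p = 0.0608 to 0.118). The neighbouring *H2-Q2*, named after its values were seen, had 1, 0 and 0 counts in cont. mice, 53, 50 and 61 in Atg7-KO mice and 1, 0 and 1 in Atg7-KO;p62T352A mice. With 1 count in all cont. mice together, the ratio of Atg7-KO to cont. was 88.9, with a 95% counting interval from 15.7 to 3534. *H2-M3*, which presents formylated peptides, had 2.12, 1.99 and 2.86, 7.69, 6.99 and 7.47 and 3.00, 2.52 and 3.92 normalized CPM in cont., Atg7-KO and Atg7-KO;p62T352A mice, a 3.20-fold rise in Atg7-KO (adjusted p = 0.000648). *H2-M2*, also named after its values were seen, had 3, 3 and 3 counts in cont. mice, 35, 25 and 38 in Atg7-KO mice and 8, 5 and 42 in Atg7-KO;p62T352A mice. Its rise in Atg7-KO was called (adjusted p = 0.0276), and Atg7-KO;p62T352A mouse 3 was the highest of the 9 by counts.

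*H2-T23*, the Qa-1 heavy chain, which is read by receptors of NK cells (chromosome 17 from 36029773 to 36032855), had 160.0, 123 and 149 normalized CPM in cont. mice, 238, 242 and 242 in Atg7-KO mice and 182, 237 and 254 in Atg7-KO;p62T352A mice. It rose 1.67-fold in Atg7-KO (adjusted p = 0.00986), and the 1.55-fold difference between Atg7-KO;p62T352A and cont. mice was not called (adjusted p = 0.0543), although it was called without cont. mouse 1 (adjusted p = 0.0169). For the rise of *H2-T23* in Atg7-KO, without cont. mouse 2 this call was lost (adjusted p = 0.0736). *H2-T24* had 3.21, 4.73 and 6.26 normalized CPM in cont. mice, 7.06, 9.37 and 8.11 in Atg7-KO mice and 3.43, 2.94 and 3.92 in Atg7-KO;p62T352A mice. It was 1.75-fold higher in Atg7-KO mice than in cont. (adjusted p = 0.0328). For *H2-T24*, without cont. mouse 1 or 2 or any Atg7-KO mouse this call was lost (adjusted p = 0.0451 to 0.118), in the case of cont. mouse 1 because the fold change fell under 1.5. *H2-T24* was 2.38-fold lower in Atg7-KO;p62T352A than in Atg7-KO mice (adjusted p = 0.00379).

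*H2-T22* and *H2-T10*, ligands of gamma-delta T cells, and *H2-T9* are near-identical in parts, and reads may be split among them. *H2-T22* shared 18.5% of its 75-base stretches with other genes, mostly *H2-T10*, and *H2-T9* has no gene of its own in the annotation used here. *H2-T22* had 23.9, 18.0 and 7.58 normalized CPM in cont. mice, 109, 126 and 131 in Atg7-KO mice and 3.93, 3.64 and 4.57 in Atg7-KO;p62T352A mice. It was 7.35-fold higher in Atg7-KO (adjusted p = 0.000243) and 4.09-fold lower in Atg7-KO;p62T352A than in cont. mice (adjusted p = 0.0104). *H2-T9* had 77.4, 50.8 and 76.6, 260.3, 321 and 332 and 143, 152 and 206 normalized CPM in the same genotypes and was higher than cont. in both, by 4.46-fold and 2.44-fold (adjusted p = 0.000148 and 0.0109). *H2-T10* rose 3.50-fold in Atg7-KO, from 2.06, 5.39 and 4.95 to 10.1, 15.0 and 17.4 normalized CPM (adjusted p = 0.00608). In Atg7-KO;p62T352A mice *H2-T10* had 9.78, 5.32 and 11.7 normalized CPM. That was 2.20-fold above cont. but not called (adjusted p = 0.103), nor was the difference from Atg7-KO (adjusted p = 0.170). With the mice numbered 1 left out, *H2-T10* was called lower than in Atg7-KO (log2 fold change -0.93, adjusted p = 0.0360). *H2-T22* took 8.51% to 24.2% of the sum of the 3 genes in cont., 27.2% to 28.7% in Atg7-KO mice and 2.06% to 2.51% in Atg7-KO;p62T352A mice. Summed before the fit, an alternative chosen after seeing the data, the 3 genes were higher in Atg7-KO (log2 fold change 2.31, standard error 0.22, adjusted p = 7.06e-05) and in Atg7-KO;p62T352A mice (log2 fold change 1.02, standard error 0.21, adjusted p = 0.0186) than in cont.

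*H2-Q6*, *H2-Q7*, *H2-Q8* and *H2-Q9*, the genes of the Qa-2 antigen, also resemble each other, and *H2-Q8* and *H2-Q9* have no gene of their own in the annotation used here. *H2-Q8* had 198, 31 and 31 counts in cont. mice, 312, 406 and 578 in Atg7-KO mice and no count in any Atg7-KO;p62T352A mouse. Against a floor of 3 counts per library it was at least 91.0-fold lower in Atg7-KO;p62T352A than in Atg7-KO mice and lower than in cont. mice by at least 28.5-fold. Without cont. mouse 1 the latter bound was 15.3-fold. Both bounds are given as a description, because the absence of counts was known when the genes were chosen. In Atg7-KO mice *H2-Q8* was 3.11-fold higher than in cont. (adjusted p = 0.0322), and without cont. mouse 2 or 3 or any Atg7-KO mouse this call was lost (adjusted p = 0.0556 to 0.115). Cont. mouse 1, at 11.3 normalized CPM, stood apart from cont. mice 2 and 3 at 2.93 and 3.41, and without it the log2 fold change went from 1.64 to 2.57.

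The other genes of the group did not lose their counts in Atg7-KO;p62T352A mice. *H2-Q7* had 22.1, 34.5 and 33.1 normalized CPM in cont. mice, 35.9, 39.2 and 43.7 in Atg7-KO mice and 59.1, 41.5 and 72.8 in Atg7-KO;p62T352A mice, 1.94-fold higher than in cont. (adjusted p = 0.0351). For *H2-Q7*, without cont. mouse 2, any Atg7-KO mouse or Atg7-KO;p62T352A mouse 1 or 3 this call was lost (adjusted p = 0.0637 to 0.129). With the mouse number as a block in the model this call was lost too (adjusted p = 0.0515). *H2-Q9* had 35.6, 28.4 and 35.7, 37.1, 44.3 and 46.8 and 21.8, 22.3 and 23.2 normalized CPM and was 1.90-fold lower in Atg7-KO;p62T352A than in Atg7-KO mice (adjusted p = 0.00139), and without cont. mouse 2 it was also called lower than in cont. (adjusted p = 0.0446). With all mice the difference of *H2-Q9* from cont. was not called in the main fit (adjusted p = 0.0537). DESeq2 called it (log2 fold change -0.62, adjusted p = 0.00665), as did edgeR with DESeq2's size factors (adjusted p = 0.0447). *H2-Q6*, not called in any comparison, had 0, 65 and 24 counts in cont. mice, 72, 153 and 0 in Atg7-KO mice and 47, 40 and 33 in Atg7-KO;p62T352A mice, with 0 in cont. mouse 1 and in Atg7-KO mouse 3. Of the sum of the 4 genes, *H2-Q7* took 32.0% to 48.0% in cont. mice, 36.8% to 39.2% in Atg7-KO mice and 62.3% to 74.1% in Atg7-KO;p62T352A mice. The sum itself was 69.0, 72.0 and 74.8 normalized CPM in cont. mice, 91.6, 107 and 115 in Atg7-KO mice and 84.2, 66.7 and 98.2 in Atg7-KO;p62T352A mice, and fitted as 1 gene it was not called in any of the 3 comparisons. Its log2 fold change between Atg7-KO;p62T352A and Atg7-KO mice was -0.33 (adjusted p = 0.149).

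*H2-K2*, annotated as a transcribed pseudogene beside *H2-K1* (chromosome 17 from 33974659 to 33978827), separated the mice in another way. It had 4.47, 71.7 and 109.6 normalized CPM in cont. mice 1, 2 and 3, 5.46, 6.08 and 7.51 in Atg7-KO mice and 57.5, 42.2 and 55.7 in Atg7-KO;p62T352A mice. Cont. mouse 1 was at the level of the Atg7-KO mice, and the other 5 mice were between 42.2 and 109.6. *H2-K2* was called 9.70-fold lower in Atg7-KO mice than in cont. (adjusted p = 0.0100) although the groups overlapped through this mouse, and without it the log2 fold change went from -3.28 to -3.83 (adjusted p = 2.60e-06). Without it *H2-K2* was also called lower in Atg7-KO;p62T352A than in cont. mice (log2 fold change -0.80, adjusted p = 0.0218). *H2-Q4*, named for its values and not called in any comparison, showed cont. mouse 1 apart as well, at 24.6 normalized CPM against 70.8 and 109 in the other cont. mice and 54.3 to 82.9 in the other genotypes.

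**Figure D3:**
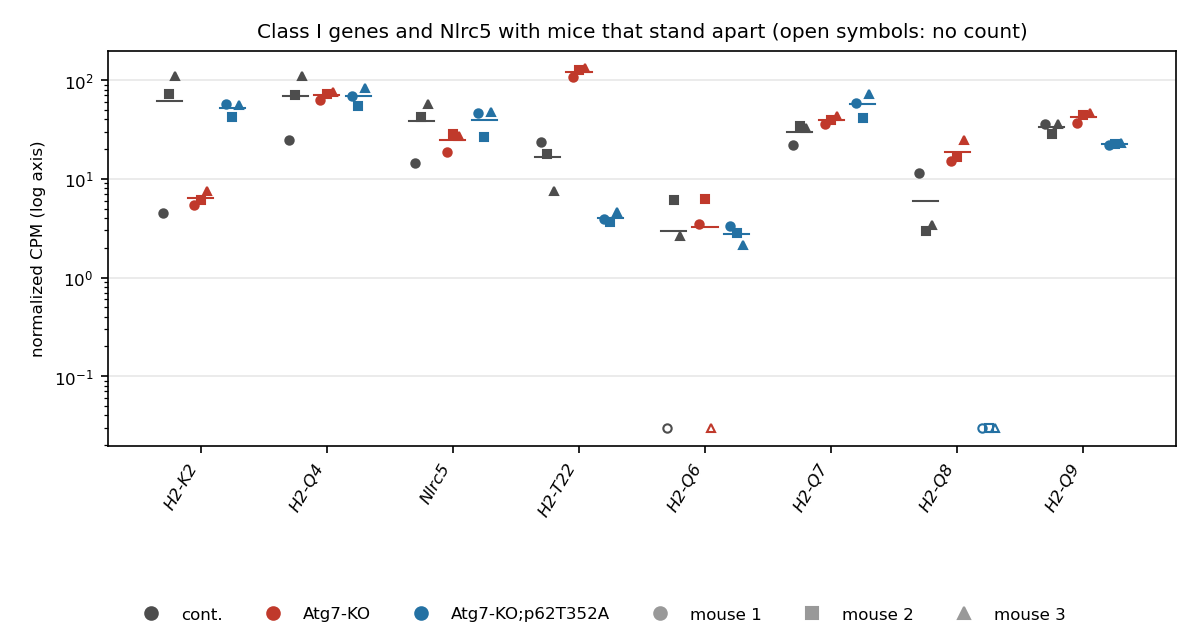
Normalized CPM (log axis) in each of the 9 mice for class I genes and *Nlrc5* in which single mice or a whole genotype stand apart, with a line at the mean of each genotype and open symbols near the lower edge for mice without a count. *H2-Q8* has no count in the 3 Atg7-KO;p62T352A mice, and for *H2-K2*, *H2-Q4* and *Nlrc5* cont. mouse 1 lies well below the other 2 cont. mice.

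Counted over the class, 11 of the 20 class I genes tested were called higher in Atg7-KO mice than in cont. and 2 (*H2-Q10* and *H2-K2*) lower, with a median log2 fold change of 0.77. Read against all genes, 11 of 20 is above the 21.6% called higher and 2 of 20 is below the 22.1% called lower. Without cont. mouse 2, 7 class I genes were called higher, in a fit that called 2383 of all 14177 genes tested higher. Against Atg7-KO, Atg7-KO;p62T352A mice had 3 class I genes (*H2-K1*, *H2-Q10* and *H2-K2*) called higher and 8 lower, with a median of -0.32, where 24.7% of all genes were higher and 26.2% lower. Against cont., 5 (*H2-D1*, *H2-K1*, *H2-Q1*, *H2-Q7* and *H2-T9*) were called higher and 2 (*H2-Q8* and *H2-T22*) lower, where the shares over all genes were 6.25% and 5.34%. DESeq2 called 5 higher and 3 lower. Neither of the 2 lower calls was seen when near-identical genes were summed before the fit. Then *H2-T9*, *H2-T10* and *H2-T22* were called higher (log2 fold change 1.02, adjusted p = 0.0186). The sum of *H2-Q6* to *H2-Q9* was not called (log2 fold change 0.21, adjusted p = 0.501). *H2-Q8* is 1 of the 8 and 1 of the 2, and that it has no count in Atg7-KO;p62T352A mice was known when the genes were chosen. The median against cont. was 0.38, or 0.30 with *H2-Q8* set to its bound and *H2-Q2*, at or under the floor in both genotypes, left out. The 5 higher calls of this comparison became 1 without cont. mouse 2, Atg7-KO mouse 2 or Atg7-KO;p62T352A mouse 3, and 2 without Atg7-KO mouse 1, Atg7-KO mouse 3 or Atg7-KO;p62T352A mouse 1. Calls over all genes fell in these fits as well, from 870 of 13922 higher with all mice. In the same order they were 310 of 14177, 378 of 14113 and 244 of 14188, and 400 of 14148, 375 of 14103 and 448 of 14184. Of the 10 accessory genes, 7 rose and 1 fell in Atg7-KO mice relative to cont., and 2 were higher and 6 were lower past the threshold in Atg7-KO;p62T352A than in Atg7-KO mice, where the shares over all genes were 24.7% and 26.2%.

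Set against each other, the 2 classes differed in their course. The summed class I level was 4036, 3831 and 4654 normalized CPM in cont. mice, 4024, 4041 and 4129 in Atg7-KO mice and 6724, 5939.6 and 6484 in Atg7-KO;p62T352A mice. After TMM scaling, cont. and Atg7-KO mice overlapped in this sum, which includes *H2-Q10*, and the 3 Atg7-KO;p62T352A mice were above all others. Without *H2-Q10* the sum was 1966, 2106 and 2633 normalized CPM in cont. mice, 3024, 3187 and 3302 in Atg7-KO mice and 3969, 3486 and 4509 in Atg7-KO;p62T352A mice, with no overlap between any of the genotypes. The sum of *H2-K1* and *H2-D1* alone was 1590 to 2072 in cont. mice, 2135 to 2262 in Atg7-KO mice and 2904 to 3755 normalized CPM in Atg7-KO;p62T352A mice, again with no overlap. The ratio of the summed class II to the summed class I level was 0.0245, 0.0270 and 0.0252 in cont. mice, 0.159, 0.143 and 0.148 in Atg7-KO mice and 0.0157, 0.0205 and 0.0216 in Atg7-KO;p62T352A mice. Its mean was 0.150 ± 0.00818 (SD, n = 3) in Atg7-KO mice against 0.0256 ± 0.00130 in cont. and 0.0193 ± 0.00314 in Atg7-KO;p62T352A mice. The Atg7-KO mice did not overlap with the others, and each Atg7-KO;p62T352A mouse was below each cont. mouse. No test was made of a ratio over chosen genes. *H2-Q10* alone was a large part of the class I sum, and without it the mean ratio was 0.0480 ± 0.00309 in cont. mice, 0.193 ± 0.0165 in Atg7-KO mice and 0.0309 ± 0.00417 in Atg7-KO;p62T352A mice.

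**Figure D4:**
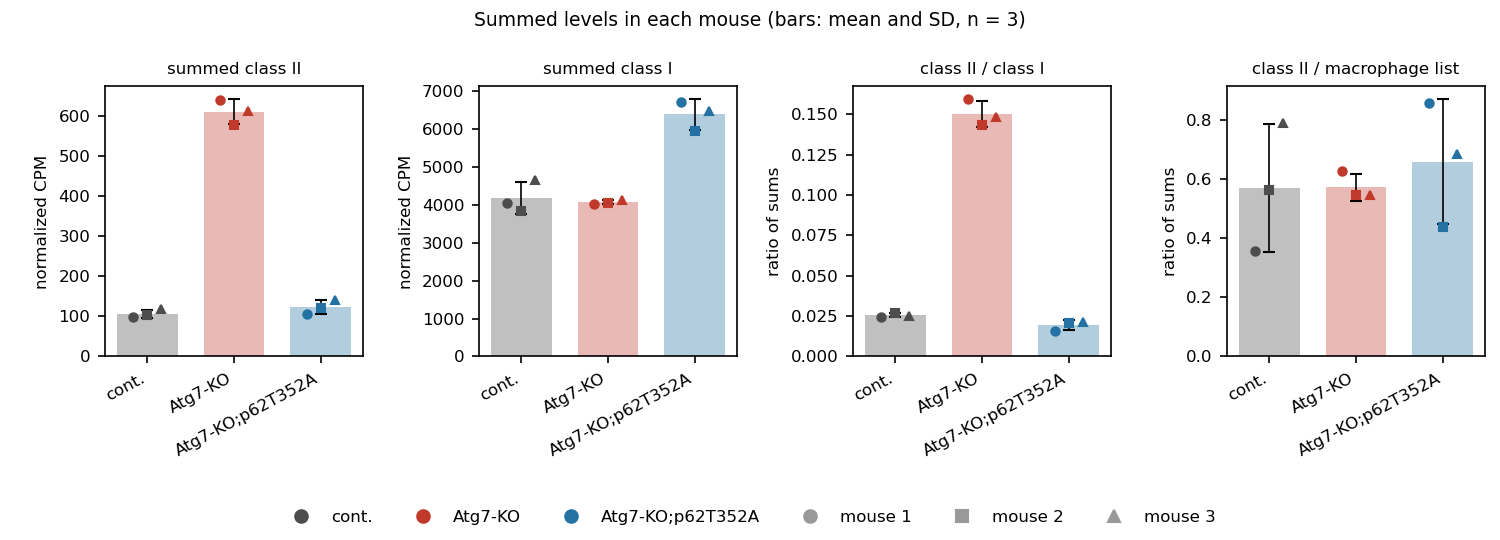
Summed normalized CPM of the class II and class I genes, the ratio of the 2 sums, and the ratio of the class II sum to the sum of 7 macrophage markers, in each mouse, with bars for the mean and error bars for the SD of 3 mice. Class II and its ratio to class I are highest in the 3 Atg7-KO mice, class I is highest in the 3 Atg7-KO;p62T352A mice, and the ratio to macrophage markers overlaps between all genotypes.

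To set levels of different genes side by side, they were divided by the joined length of the exons of all annotated transcripts of a gene. This length can exceed that of the transcript present, so the order of genes depends on it. Per kilobase of exon, *B2m* was the most abundant member in every genotype, with 3317 ± 402 normalized CPM per kilobase (SD, n = 3) in cont., 3212 ± 283 in Atg7-KO mice and 5134 ± 1034 in Atg7-KO;p62T352A mice. *H2-Q10* and *H2-K1* came next in cont. livers and did not differ beyond their spread, at 446 ± 43.0 and 445 ± 81.9 normalized CPM per kilobase, followed by *H2-D1* at 183 ± 13.4. Without division by length, *H2-Q10* had a mean of 1939 normalized CPM in cont. mice against 1309 for *H2-K1*. In Atg7-KO livers *H2-K1* and *H2-D1* were near each other, at 409.5 ± 5.25 and 384 ± 20.4, and *Cd74* followed at 344 ± 10.6, ahead of *H2-Q10* at 206 ± 21.5. *Cd74* had 51.0 ± 3.69 in cont. livers. The classical class II chains in Atg7-KO livers were at 84.0 ± 2.76 for *H2-Eb1*, 67.3 ± 3.05 for *H2-Ab1* and 58.6 ± 4.12 for *H2-Aa*, still below the classical class I chains. Without division by length their order was reversed, with means of 163, 173 and 222 normalized CPM. *H2-Q8*, *H2-Q9*, *H2-T9* and *H2-L* have no length in this annotation and were left out of the order.

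**Figure D5:**
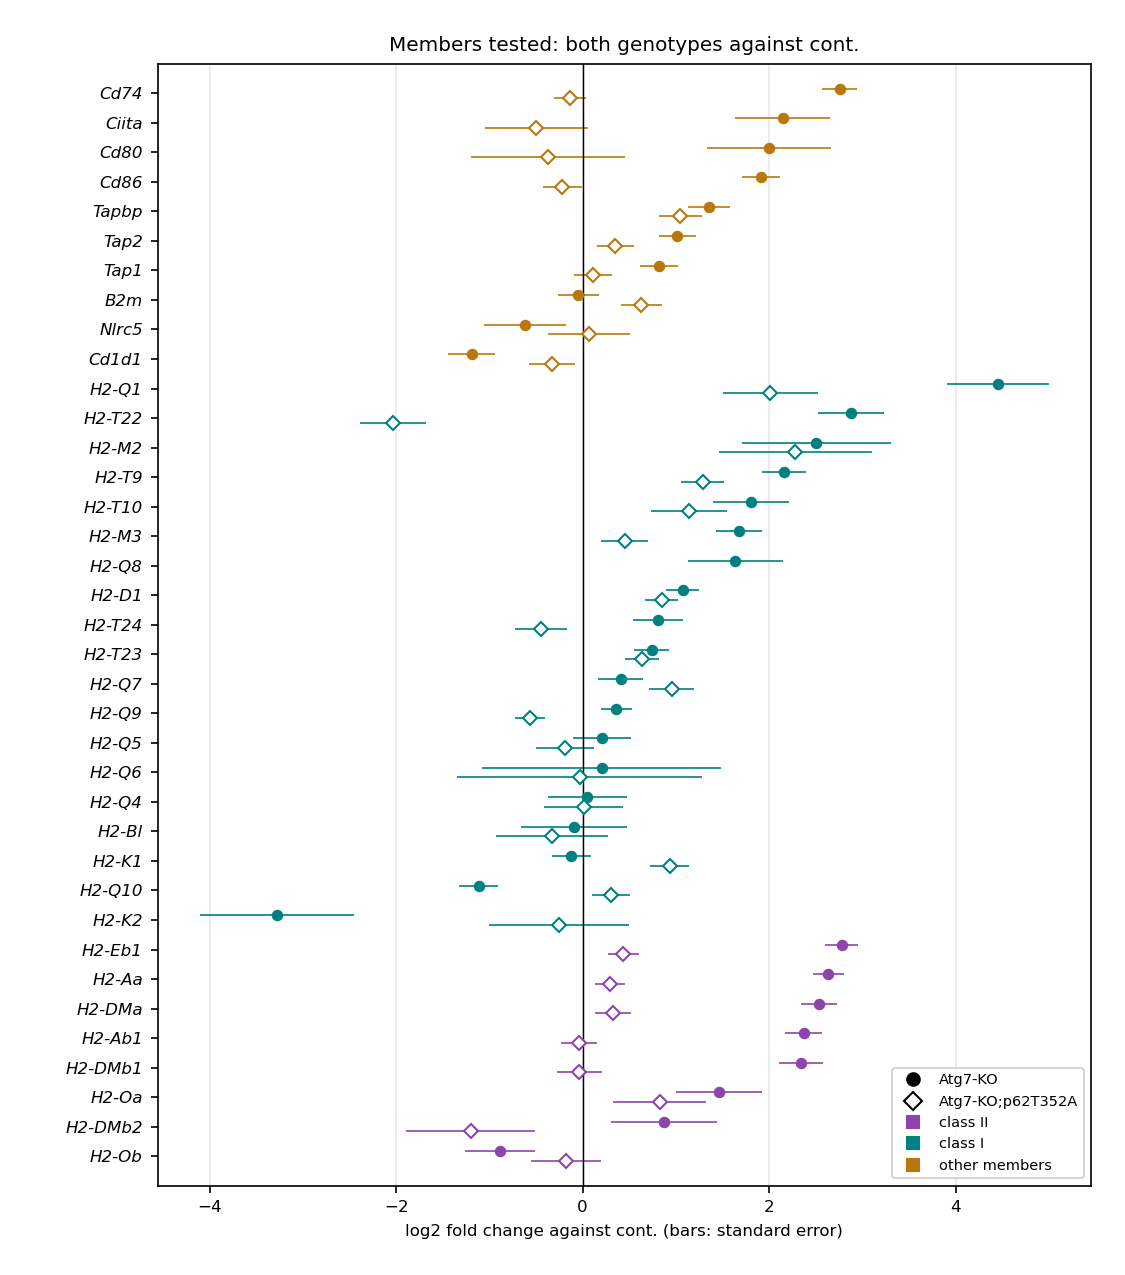
Log2 fold change with its standard error of the members tested, Atg7-KO (filled circles) and Atg7-KO;p62T352A (open diamonds) against cont., by class. *H2-Q2* and the Atg7-KO;p62T352A value of *H2-Q8* are left out because a genotype had almost no counts. The class II genes *H2-Aa*, *H2-Ab1*, *H2-Eb1*, *H2-DMa* and *H2-DMb1* lie between 2.34 and 2.78 in Atg7-KO and between -0.04 and 0.43 in Atg7-KO;p62T352A mice, whereas class I genes lie on both sides of 0.

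Further genes of both pathways were counted from lists chosen with earlier results of these data known. Beyond the genes with the largest and the smallest fold change of each list, single genes are named after their values were seen. The counts between Atg7-KO and cont. are to be read against the 21.6% of all genes called higher and the 22.1% called lower. Of 6 proteasome and trimming genes, 3 (the immunoproteasome subunits *Psmb8* and *Psmb9* and the proteasome activator *Psme1*) were called higher in Atg7-KO mice than in cont. and none lower. *Psmb8* had the largest fold change, 2.70-fold, and *Psmb10* the smallest, with a log2 fold change of 0.13 (adjusted p = 0.784). The peptide-trimming *Erap1* was 2.21-fold lower in Atg7-KO;p62T352A than in cont. mice (adjusted p = 0.0254). None of 5 endoplasmic reticulum chaperones of loading (*Canx*, *Calr*, *Pdia3*, *Tapbpl* and *Hspa5*) was called between Atg7-KO and cont., with log2 fold changes from -0.77 to 0.51, and cont. mouse 1 was the highest of the cont. mice for all 5. By edgeR, *Calr* and *Tapbpl* had an unadjusted p under 0.05, and DESeq2 called none of the 5.

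Of 6 endosomal proteases and reductases that serve class II, 5 were called higher in Atg7-KO mice than in cont. and none lower, while 4 fell past the threshold between Atg7-KO and Atg7-KO;p62T352A mice (5 by DESeq2), where 26.2% of all genes were called lower. *Ctss*, cathepsin S, which trims the invariant chain, had 43.0, 21.4 and 15.7 normalized CPM in cont. mice, 261, 246 and 254 in Atg7-KO mice and 19.6, 38.2 and 37.3 in Atg7-KO;p62T352A mice and rose 9.46-fold (adjusted p = 0.000245), the largest change of the list. *Ctsl* had the smallest, with a log2 fold change of 0.36 (adjusted p = 0.296). Of 4 costimulation and checkpoint genes tested (*Cd40*, *Icosl*, *Cd274* and *Cd276*), all were called higher in Atg7-KO, by 2.56-fold to 3.66-fold.

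Of 12 regulators of MHC genes, 3 (*Irf8* and *Spi1* among them) were called higher in Atg7-KO mice than in cont. and 2 (*Rfxank* and *Nfyc*) lower, which lies near the shares over all genes. *Rfxank*, a subunit of the RFX complex that binds class II promoters, had 21.8, 32.2 and 30.8 normalized CPM in cont. mice, 10.2, 9.45 and 10.2 in Atg7-KO mice and 44.1, 40.5 and 38.5 in Atg7-KO;p62T352A mice, 2.84-fold lower in Atg7-KO (adjusted p = 0.000242). *Nfyc*, a subunit of NF-Y, was 1.61-fold lower (adjusted p = 0.0217). *Spi1*, which encodes the myeloid factor PU.1, had the largest rise, 3.54-fold (adjusted p = 0.000643). *Irf1* had 27.0, 55.8 and 81.9 in cont. and 41.4, 49.1 and 44.3 in Atg7-KO mice and was not called (adjusted p = 0.491). None of the 12 was called between Atg7-KO;p62T352A and cont. mice by edgeR, where *Rfxank* and *Spi1* had an unadjusted p under 0.05, or by DESeq2.

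Class I-like genes outside the H2 complex were mixed as well. *Mr1*, which presents vitamin metabolites to MAIT cells, was called 2.40-fold higher in Atg7-KO mice than in cont. (adjusted p = 0.0108), whereas *Azgp1* and *Fcgrt* were called lower, by 2.57-fold and 1.56-fold (adjusted p = 0.000483 and 0.0371). *Hfe* had a log2 fold change of 0.40 and was not called (adjusted p = 0.0769).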

How the data were processed

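Whole-liver RNA of 3 cont., 3 Atg7-KO and 3 Atg7-KO;p62T352A mice was sequenced as poly(A) libraries. The deposited values are expected counts per gene symbol, which the authors obtained by trimming with Trim Galore, alignment with STAR to mm10 and estimation with RSEM; versions, annotation and strand setting are not given in the sources used here. RSEM divides reads that match several genes, so that counts of near-identical class I genes depend on that division. Groups came from the sample labels. The 3 labelled p62T352A mice were not analysed here.

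Expected counts were rounded to whole numbers and fitted for all 3 genotypes in 1 model with edgeR 4.0.16 (R 4.3.3; TMM scaling, filterByExpr, quasi-likelihood test), which left 13922 genes. A gene was called at a Benjamini-Hochberg adjusted p under 0.05 over these genes and a fold change over 1.5. Tested on simulated data for Atg7-KO against cont. (13671 genes, a dispersion of 0.08 for every gene), edgeR recovered 95.5% of 200 genes changed by 4-fold and called 9 unchanged genes. The simulation held no smaller changes and no mouse set apart, so it does not measure how reliable the calls near 1.5-fold are in these data. Total counts were 9671073 to 23285134 per mouse, and the spread between mice of a genotype was above counting error (chi-square per degree of freedom 13.3 to 305). Floors (3 counts per library) and counting intervals (95%, exact) cover counting error only. Alternatives were DESeq2 1.42.0, its size factors, upper-quartile scaling, no filter or at least 10 counts in every mouse, a replicate block, and leaving out mice. Named members were *B2m*, *H2-K1*, *H2-D1*, *Tap1*, *Tap2*, *Tapbp*, *Nlrc5*, *Ciita*, *Cd74*, *H2-Aa*, *H2-Ab1*, *H2-Eb1*, *H2-DMa*, *H2-DMb1*, *H2-DMb2*, *H2-Oa*, *H2-Ob*, *Cd1d1*, *Cd80*, *Cd86*, *H2-Q8* and *H2-Q10* whatever their values, and all others called in a comparison with a mean of at least 1 normalized CPM; *H2-Q2*, *H2-M2*, *H2-Q4*, *H2-Q6*, *H2-Eb2* and *H2-Ea-ps* were named after their values were seen. Of the other lists, counts and the largest and smallest changes were given. The members and the lists of pathway genes and markers were chosen with earlier results of these data known. Positions and exon lengths are from GENCODE vM21 on GRCm38, and shared 75-base stretches were counted between its transcripts. *Ighm* and *Tf* of the marker lists were not analysed here. Single values of some list genes are not reported here.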

Additional observations from a re-analysis of the deposited data

How the results depend on the processing

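No named member changed direction with a call under any alternative. For the 96 named results, DESeq2 moved 1 call below and 1 above the threshold, its size factors 0 and 1, upper-quartile scaling 1 and 0, no filter 1 and 0, and leaving out the mice numbered 1 in every genotype 6 and 5. With these mice left out, which leaves only the mice with high *Xist* counts, 1 class II gene was called lower in Atg7-KO than cont. and 3 class I genes higher in Atg7-KO;p62T352A than cont. With at least 10 counts required in every mouse, which tests fewer genes, 1 class I gene was called lower in Atg7-KO;p62T352A than cont. Upper-quartile scaling shifted the median of all genes by -0.13 (log2) between Atg7-KO;p62T352A and Atg7-KO, with 2897 genes higher and 4141 lower against 3443 and 3652 with TMM. Over all genes, counts of calls changed by over 1.5 times in Atg7-KO;p62T352A against cont., from 870 genes higher and 743 lower to 1026 and 1184 with DESeq2, 517 and 471 with a replicate block and 1314 and 1661 with the mice numbered 1 left out, and without single mice to between 244 (Atg7-KO;p62T352A mouse 3) and 1514 (cont. mouse 1) higher. Leaving out *H2-Q10*, the mean ratio of class II to class I was 0.0480 in cont. mice, 0.193 in Atg7-KO mice and 0.0309 in Atg7-KO;p62T352A mice, and with *H2-K1* and *H2-D1* alone as class I it was 0.0602, 0.279 and 0.0368.

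Without 1 mouse at a time, class I genes called higher numbered 7 to 11 (Atg7-KO against cont.), 3 to 4 (Atg7-KO;p62T352A against Atg7-KO) and 1 to 6 (Atg7-KO;p62T352A against cont.), and those called lower 2 to 2, 8 to 9 and 2 to 3. Class II genes called higher numbered 5 to 7, 0 to 1 and 0 to 0, and those called lower 0 to 1, 5 to 7 and 0 to 1. Over all genes, calls in these fits numbered 2383 to 3984, 2667 to 4007 and 244 to 1514 higher. Those called lower over all genes numbered 2149 to 3976, 2985 to 4135 and 191 to 1731. The mean ratio of class II to class I was 0.0248 to 0.0261 in cont. mice, 0.146 to 0.154 in Atg7-KO mice and 0.0181 to 0.0211 in Atg7-KO;p62T352A mice. The cause of these shifts was not tested.

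Mouse numbers are shared by the genotypes, but same-numbered mice did not deviate together throughout (mean r = 0.146, lowest -0.202, over 0.1 in 6 of 9 pairs, against -0.0705 for other pairs). The mice numbered 1 were those with few *Xist* counts in every genotype, so that the number also carries this difference, which the main model leaves out. All 6 pairs of the numbers 1 and 3 were over 0.1 and none of number 2 was, and cont. mouse 1 correlated better with Atg7-KO;p62T352A mouse 2 than with mouse 1 of that genotype, so the number was not taken as a pairing. With it as a replicate block, 3 calls were lost, namely *Cd80* (log2 fold change 2.07, adjusted p = 0.0520) and *H2-Oa* (1.47, 0.0553) in Atg7-KO against cont. and *H2-Q7* (0.95, 0.0515) in Atg7-KO;p62T352A against cont., and 4 class I genes in place of 5 were called higher in the last comparison. *Cd80*, *H2-Oa* and *H2-DMb2* had 0 to 9 counts in each cont. mouse, and the part of counting error in their lost calls was not tested.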
